A study of Homo sapiens with 18 samples.

Results

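The oxidative phosphorylation machinery was followed here as 80 genes: the nuclear-encoded subunits of respiratory complexes I to IV and of the ATP synthase (complex V), with a few genes that share their symbols. Members were taken from the deposited table as every probe with a single gene symbol beginning NDUFA, NDUFB, NDUFC, NDUFS, NDUFV, UQCR, COX4, COX5, COX6, COX7, COX8 or ATP5, plus SDHA, SDHB, SDHC, SDHD and CYC1, and the NDUFAF assembly factors were left out (8 genes). This gave 80 of the 17687 distinct symbols in the table, which stand on 17709 probes, each member with 1 probe: 32 in complex I, 3 in complex II, 8 in complex III, 17 in complex IV, 15 in complex V and 5 that are not subunits or are copies. The 5 are ATP5IF1 (an inhibitor of the ATP synthase), the readthrough symbol ATP5MF-PTCD1, ATP5MGL, the divergent transcript NDUFV1-DT and UQCRHL, a near copy of UQCRH. SDHB, NDUFS1 and UQCRFS1 had no probe of their own here and were not analysed, and the same holds for the subunits encoded by mitochondrial DNA.

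The study treated OCI-AML3 cells, a human acute myeloid leukaemia line whose genotype is labelled wildtype, in 3 groups of 6 biological replicates. The groups received the solvent DMSO, RG7112 at 2 µM or HDM201 at 500 nM for 24 h, each compound at a single dose and time. Both compounds block the pocket of MDM2 that binds p53 and so release p53 from MDM2-driven degradation. One line was used, and whether the replicates were separate cultures is said only by the word biological in the labels, so p-values measure the spread between these arrays. Total RNA was read on Affymetrix arrays, and all values are log2 signals after RMA, a method that corrects background, equalises the arrays' distributions and summarises probes. A difference of 1 on this scale is a doubling.

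Complexes I to IV pass electrons from NADH and succinate to oxygen, and complexes I, III and IV pump protons that complex V uses to make ATP. Complex I has a small catalytic core that carries flavin and iron-sulphur clusters and a larger shell of accessory subunits. The transcription factors NRF1, GABP (an ETS factor) and YY1 are known to bind the promoters of many nuclear-encoded subunits. Genes of respiration that p53 is known to act on include SCO2, which supplies copper to complex IV, and AIFM1, and acute myeloid leukaemia cells are known to rely on respiration.

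The treatment could be read in the p53 targets MDM2 and CDKN1A. MDM2 signal was higher by 2.57 ± 0.17 (SE) with RG7112 and by 2.58 ± 0.17 with HDM201, and CDKN1A by 3.97 ± 0.33 and 4.10 ± 0.33. Myeloid markers fitted the line's label: SPI1, LYZ, CSF3R, CEBPA and ANPEP were bright, MPO was dim, and the mean over the 6 measured markers lay between 9.35 and 9.79 on every array. The mean over 5 lymphocyte markers lay between 4.45 and 4.83, over 6 erythroid and megakaryocyte markers between 6.13 and 6.95, and over 6 fibroblast and epithelial markers between 5.73 and 6.23. In DMSO, 4 markers of each of these lists lay below the median of all probes. The brightest of each had DMSO means of 6.83, 7.11 and 8.24. With RG7112, 2 of the 6 erythroid and megakaryocyte and 3 of the 6 fibroblast and epithelial markers lay below that median. Array medians ran from 6.44 to 6.57. RG7112 replicate 3 stood apart: the interquartile range of its signals was 3.45, and each of the remaining 17 arrays had one between 3.70 and 3.91. It was the lowest RG7112 array for 48 of the 80 members and the highest for 12, so results were also computed without it. In earlier results of these data replicates 1 to 3 stood apart from replicates 4 to 6, and values within each of these sets are given below.

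Promoter sequences are shown for the 5 members called in the same direction under both compounds, because these are the members whose movement recurs with the second compound. They come from RefSeq (GRCh38.p14) and run from 250 bases before to 50 bases after a start site given in its table, on the gene's strand, 5′ to 3′. Where the table gives a gene several windows (8 of the matched members), the first listed was used. COX7A2L has 2, and the window shown is around a start inside the gene's full span, not at its outer end. Capitals mark an NRF1 half-site (TGCGCA), an ETS core (CCGGAAG) or a YY1 core (AAGATGG) on either strand. NDUFA6, NDUFA9 and NDUFB10 fell, and COX7A2L and ATP5IF1 rose.
NDUFA6 (chr22:42090723-42091022, minus strand): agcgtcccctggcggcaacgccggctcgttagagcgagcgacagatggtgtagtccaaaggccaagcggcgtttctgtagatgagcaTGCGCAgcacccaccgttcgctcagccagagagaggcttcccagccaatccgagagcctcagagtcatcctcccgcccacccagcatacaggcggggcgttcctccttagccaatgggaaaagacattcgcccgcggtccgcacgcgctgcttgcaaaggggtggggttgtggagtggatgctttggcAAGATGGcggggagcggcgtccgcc
NDUFA9 (chr12:4648864-4649163, plus strand): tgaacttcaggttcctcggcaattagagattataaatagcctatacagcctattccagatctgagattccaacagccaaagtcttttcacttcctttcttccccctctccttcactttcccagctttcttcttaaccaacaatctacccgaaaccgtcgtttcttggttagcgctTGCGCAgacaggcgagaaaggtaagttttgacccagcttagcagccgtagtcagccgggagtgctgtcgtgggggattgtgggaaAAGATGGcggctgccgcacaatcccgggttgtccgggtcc
NDUFB10 (chr16:1959288-1959587, plus strand): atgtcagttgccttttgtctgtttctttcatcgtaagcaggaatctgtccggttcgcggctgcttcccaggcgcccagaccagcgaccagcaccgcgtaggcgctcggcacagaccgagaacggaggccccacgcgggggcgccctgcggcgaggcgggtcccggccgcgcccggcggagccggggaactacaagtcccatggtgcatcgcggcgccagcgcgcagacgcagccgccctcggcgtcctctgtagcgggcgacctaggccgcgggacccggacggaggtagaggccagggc
COX7A2L (chr2:42361168-42361467, minus strand): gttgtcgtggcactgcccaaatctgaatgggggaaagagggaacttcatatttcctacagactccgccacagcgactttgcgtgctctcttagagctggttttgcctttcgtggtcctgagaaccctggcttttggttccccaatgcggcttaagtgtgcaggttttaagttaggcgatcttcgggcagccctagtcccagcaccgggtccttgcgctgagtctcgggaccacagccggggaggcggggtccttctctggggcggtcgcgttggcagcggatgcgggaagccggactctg
ATP5IF1 (chr1:28235874-28236173, plus strand): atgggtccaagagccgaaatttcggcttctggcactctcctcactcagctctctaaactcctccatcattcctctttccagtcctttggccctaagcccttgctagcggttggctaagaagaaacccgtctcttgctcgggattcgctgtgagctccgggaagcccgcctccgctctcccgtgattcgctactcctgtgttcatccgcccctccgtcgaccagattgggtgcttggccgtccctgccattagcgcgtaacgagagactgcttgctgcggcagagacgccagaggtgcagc

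The NDUFA6 and NDUFA9 windows each held an NRF1 half-site upstream of the start, beginning 163 and 75 bases before it, and a YY1 core just downstream, beginning at +25 and +10. None of the 3 motifs was found in the windows of NDUFB10, COX7A2L (either window) or ATP5IF1. Of the 80 members, 64 had a promoter in the RefSeq table. The NRF1 half-site was present in 28.1% of these 64 windows against 8.42% of all 27305 promoters of the same length, the ETS core in 26.6% against 10.7%, and the YY1 core in 21.9% against 6.06%. A p53 half-site, searched by its consensus on both strands, was present in 3.12% of the members' windows against 6.54% of all. Among the 7 members that fell under at least 1 compound, 3 windows held the NRF1 half-site and 3 the YY1 core. Among the 6 that rose, 2 held the NRF1 half-site and none the YY1 core. The ETS core was in none of these 13 windows. Of the 51 windows of members that were not called, 13 held the NRF1 half-site, 11 the YY1 core and 17 the ETS core. The motifs do not overlap each other in the windows printed, and a match describes letters, not binding.

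With RG7112, most members were not called against DMSO. At an adjusted p under 0.05, 2 members rose (COX7A2L and ATP5IF1), 6 fell (NDUFA6, NDUFA7, NDUFA9, NDUFB6, NDUFB10 and NDUFV2) and 72 were not called. That is 10% of the members, beside 17.5% of all 21448 probes, of which 7.90% were higher and 9.61% lower. Among the 9717 probes whose mean signal was at least 6.88, the 10th percentile of the members, 29% were called. The median change over the members was -0.06, beside 0.03 over all probes and -0.04 over those 9717. The median size of change was 0.14, beside 0.15 over all probes and 0.20 over the 9717. The members' median change was -0.02 without RG7112 replicate 3. All 6 that fell belong to complex I, which gave 6 of 32 members (18.8%). With the replicate sets as a term in the fit, COX8A of complex IV was called lower too, by 0.24 (adjusted p = 0.0481). No member of complexes II, III or V was called.

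With HDM201, 6 members rose (NDUFB8, NDUFV3, SDHA, UQCR10, COX7A2L and ATP5IF1), 4 fell (NDUFA6, NDUFA8, NDUFA9 and NDUFB10) and 70 were not called. That is 12.5% of the members beside 18.8% of all probes, of which 9.16% were higher and 9.64% lower, and beside 31.5% of the probes with a signal of at least 6.88. The median change was -0.02 over the members, 0.02 over all probes and -0.01 over those with a signal of at least 6.88. The median size of change was 0.11, 0.13 and 0.19 in the same order. The lower members were all in complex I (UQCRQ of complex III was also called lower with the replicate sets as a term, adjusted p = 0.0411), while the higher ones were spread over complexes I, II, III and IV and the inhibitor ATP5IF1. Both comparisons use the same 6 DMSO arrays, so their results are not independent. Over both, 13 members were called at least once and 67 never. These counts come from a fit that did not pair arrays by replicate number. With the replicate numbers as a block, 15 members were called with RG7112 and 14 with HDM201. The share of all probes called in that fit is not given, and the labels do not say what the numbers mark.

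Changes were small. Called members differed by 1.17-fold to 1.5-fold with RG7112 and by 1.16-fold to 1.33-fold with HDM201, and no member reached a doubling or a halving in its group means. The 95% interval of the change lay within 1.5-fold either way for 71 of the 80 members with RG7112 and 74 with HDM201, and within 2-fold for 79 and 80. The exception was ATP5F1D with RG7112, whose interval ran from -1.15 to -0.01. The standard error of a member's change ran from 0.06 to 0.27, with a median of 0.10.

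The split of the calls between higher and lower depended on how the arrays were scaled, and no called member changed sign. When each array's median was subtracted, 1 member rose and 8 fell with RG7112, and 1 rose and 4 fell with HDM201. A further quantile normalization gave 7 that rose and 5 that fell with RG7112, and 8 and 4 with HDM201. For these scalings and the fits without 1 array, the share of all probes called is not given. Their counts are therefore not read against a background. The count of 2 that rose with RG7112 was 1 without DMSO replicate 1, 3, 4 or 6 or RG7112 replicate 2, and the count of 6 that fell was 3 without DMSO replicate 3, 4 or 6 or RG7112 replicate 1. The count of 6 that rose with HDM201 was 3 without DMSO replicate 5 or 6 or HDM201 replicate 2 and 2 without HDM201 replicate 3, and the count of 4 that fell was 8 without RG7112 replicate 3, an array that enters this comparison only through the shared estimate of spread.

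**Figure D1:**
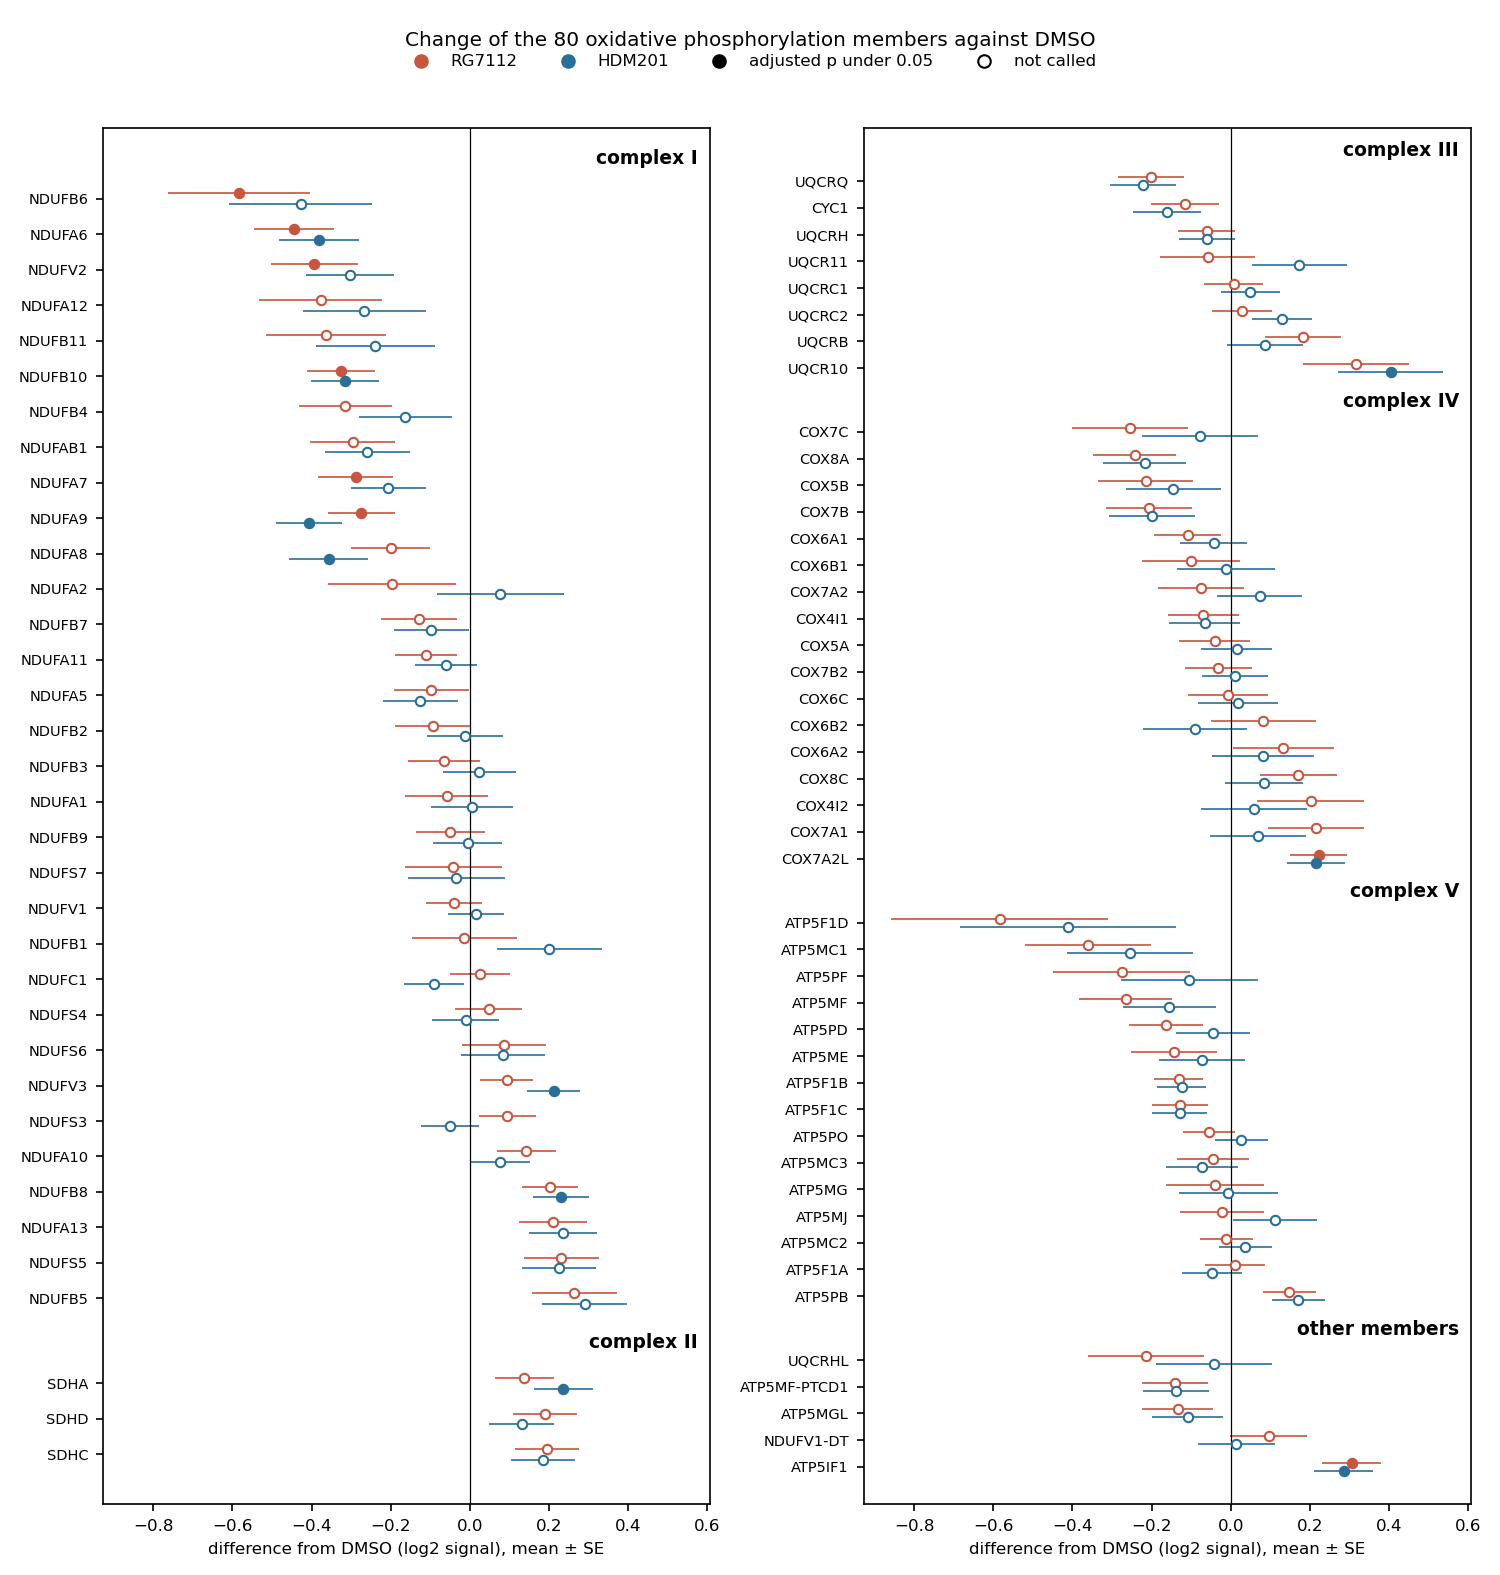
Change of each of the 80 members against DMSO (log2 difference of group means, n = 6 arrays per group) by complex, for RG7112 (red) and HDM201 (blue), with bars of ± 1 SE and filled points for calls at adjusted p under 0.05. Differences run from -0.58 (NDUFB6 and ATP5F1D, RG7112) to 0.40 (UQCR10, HDM201), and the filled points below 0 are all in complex I.

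**Figure D2:**
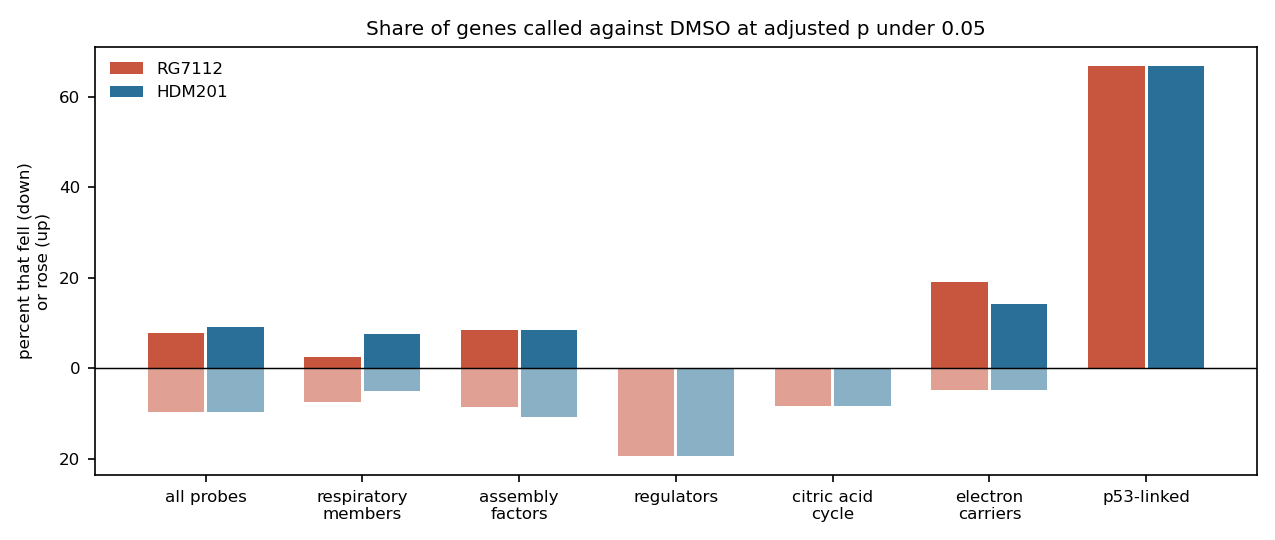
Percent of genes that rose (up) or fell (down) at adjusted p under 0.05 among all probes, the members and the pathway lists, for both compounds. The members' bars (2 rose and 6 fell of 80 with RG7112, 6 and 4 with HDM201) are shorter than those of all probes, and the p53-linked genes reach 6 of 9 upward.

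Complex I, which takes electrons from NADH, held 6 of the 8 calls with RG7112 and 6 of the 10 with HDM201. Each is 18.8% of its 32 members, beside 17.5% and 18.8% of all probes. Its median change was -0.08 with RG7112 (-0.03 without replicate 3) and -0.04 with HDM201, and 22 and 20 of its 32 members lay below 0. NDUFA6, an accessory subunit of the LYR family that docks the acyl carrier protein NDUFAB1, had signals of 10.77, 10.94 and 11.17 in DMSO (lowest, median and highest of 6 arrays), 10.13, 10.52 and 10.76 with RG7112, and 10.47, 10.54 and 10.75 with HDM201. Every treated array lay below every DMSO array, as was so for 3 of the 80 members with RG7112 (5.61% of all probes) and 4 with HDM201 (6.92%). NDUFA6 fell by 0.44 ± 0.10 (SE, adjusted p = 0.00374) with RG7112 and by 0.38 ± 0.10 (adjusted p = 0.00987) with HDM201. Within replicates 1 to 3 the changes were -0.57 and -0.54, and within 4 to 6 they were -0.32 and -0.23. NDUFAB1 itself was not called, at -0.30 (adjusted p = 0.0605) and -0.26 (adjusted p = 0.102).

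NDUFA9, an accessory subunit near the quinone site at the foot of the matrix arm, gave 9.27, 9.39 and 9.50 in DMSO, 9.0, 9.12 and 9.20 with RG7112 and 8.72, 8.95 and 9.21 with HDM201. Neither treated group overlapped DMSO. The fall was 0.27 ± 0.08 (adjusted p = 0.0273) with RG7112 and 0.41 ± 0.08 (adjusted p = 0.00123) with HDM201. The RG7112 call was lost without DMSO replicate 3, 4 or 6 or RG7112 replicate 1 (adjusted p 0.0534 to 0.0679) and after a further quantile normalization (adjusted p = 0.124). Changes within replicates 1 to 3 were -0.29 and -0.54 and within 4 to 6 were -0.25 and -0.27, RG7112 first.

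NDUFB10, an accessory subunit of the membrane arm, ran at 9.72, 9.99 and 10.12 in DMSO, 9.50, 9.62 and 9.79 with RG7112 and 9.48, 9.62 and 9.89 with HDM201, so both treated groups overlapped the low end of DMSO. It fell by 0.33 ± 0.09 (adjusted p = 0.0104) and by 0.32 ± 0.09 (adjusted p = 0.0113). The changes were -0.44 and -0.48 within replicates 1 to 3 and -0.22 and -0.15 within 4 to 6. NDUFA6 and NDUFB10 kept their calls under both compounds in all 18 fits that each left out 1 array.

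NDUFB6, another accessory subunit of the membrane arm, spread widely under RG7112. Its signals were 8.07, 8.29 and 8.34 in DMSO, 6.73, 7.72 and 8.17 with RG7112 and 7.34, 7.95 and 8.07 with HDM201. The lowest value, 6.73, was RG7112 replicate 3, and both treated groups reached up to the lowest DMSO array. The change with RG7112 was -0.58 ± 0.18 (adjusted p = 0.0281), the largest in size among called members, and -0.40 (adjusted p = 0.0403) without that array. This call was lost without DMSO replicate 2, 3, 4 or 6 or RG7112 replicate 1 (adjusted p 0.0507 to 0.0554). With HDM201 it was -0.43 (adjusted p = 0.110), the largest change in complex I that was not called.

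NDUFV2, a core subunit with an iron-sulphur cluster beside the NADH site, lay at 9.15, 9.28 and 9.53 in DMSO, 8.56, 8.90 and 9.20 with RG7112 and 8.68, 9.09 and 9.15 with HDM201. RG7112 arrays overlapped DMSO at its lowest array and HDM201 arrays all lay lower. The fall was 0.39 ± 0.11 (adjusted p = 0.0161) with RG7112, and the change was -0.30 (adjusted p = 0.0616) with HDM201. Its catalytic partner NDUFV1, which binds NADH and flavin, was close to level: 10.02, 10.16 and 10.17 in DMSO, 9.93, 10.12 and 10.17 with RG7112, and 10.01, 10.10 and 10.28 with HDM201. The change of NDUFV1 was -0.04 (95% interval -0.19 to 0.11) and 0.01 (-0.13 to 0.16).

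NDUFA7 and NDUFA8 were each called under 1 compound. NDUFA7, an accessory subunit of the matrix arm, gave 8.92, 9.18 and 9.24 in DMSO, 8.46, 8.95 and 9.06 with RG7112, and 8.83, 8.92 and 9.10 with HDM201, with overlap in both cases. It fell by 0.29 ± 0.09 (adjusted p = 0.0388) with RG7112 and changed by -0.21 (adjusted p = 0.15) with HDM201. The call was lost without DMSO replicate 2, 3, 4, 5 or 6 or RG7112 replicate 1 or 3 (adjusted p 0.0588 to 0.0817). NDUFA8, an accessory subunit on the intermembrane face, gave 8.98, 9.08 and 9.17 in DMSO, 8.60, 8.89 and 9.22 with RG7112 and 8.43, 8.75 and 8.96 with HDM201. All HDM201 arrays lay below DMSO, a fall of 0.36 ± 0.10 (adjusted p = 0.0138), while the RG7112 change was -0.20 (adjusted p = 0.181) and -0.27 (adjusted p = 0.0465) without RG7112 replicate 3. The direct comparison of the compounds did not call NDUFA7 or NDUFA8.

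Complex I also held the members NDUFB8 and NDUFV3, which rose with HDM201. NDUFB8, a membrane-arm accessory subunit, gave 9.66, 9.72 and 9.76 in DMSO, 9.83, 9.90 and 10.11 with RG7112 and 9.80, 9.93 and 10.12 with HDM201, so every treated array lay higher. The change was 0.20 (adjusted p = 0.0531) with RG7112, 0.22 (adjusted p = 0.0331) without RG7112 replicate 3, and 0.23 ± 0.07 (adjusted p = 0.0247) with HDM201. That HDM201 call was lost without HDM201 replicate 5 or 6 (adjusted p 0.0566 to 0.0655). NDUFV3, a small accessory subunit of the NADH module, gave 10.34, 10.46 and 10.62 in DMSO, 10.38, 10.60 and 10.61 with RG7112 and 10.63, 10.68 and 10.72 with HDM201. The HDM201 arrays all lay higher and the change was 0.21 ± 0.07 (adjusted p = 0.0278), and the RG7112 arrays overlapped DMSO at 0.09 (adjusted p = 0.367). It was lost without DMSO replicate 1, 2 or 5 or HDM201 replicate 1, 2 or 3 (adjusted p 0.0519 to 0.0670). With array medians subtracted, neither NDUFB8 (adjusted p = 0.0815) nor NDUFV3 (adjusted p = 0.104) was called with HDM201. The other complex I members were not called under either compound and ran from -0.38 (NDUFA12) to 0.26 (NDUFB5) with RG7112, and of those never called under either compound NDUFB5 was the highest with HDM201 at 0.29.

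**Figure D3:**
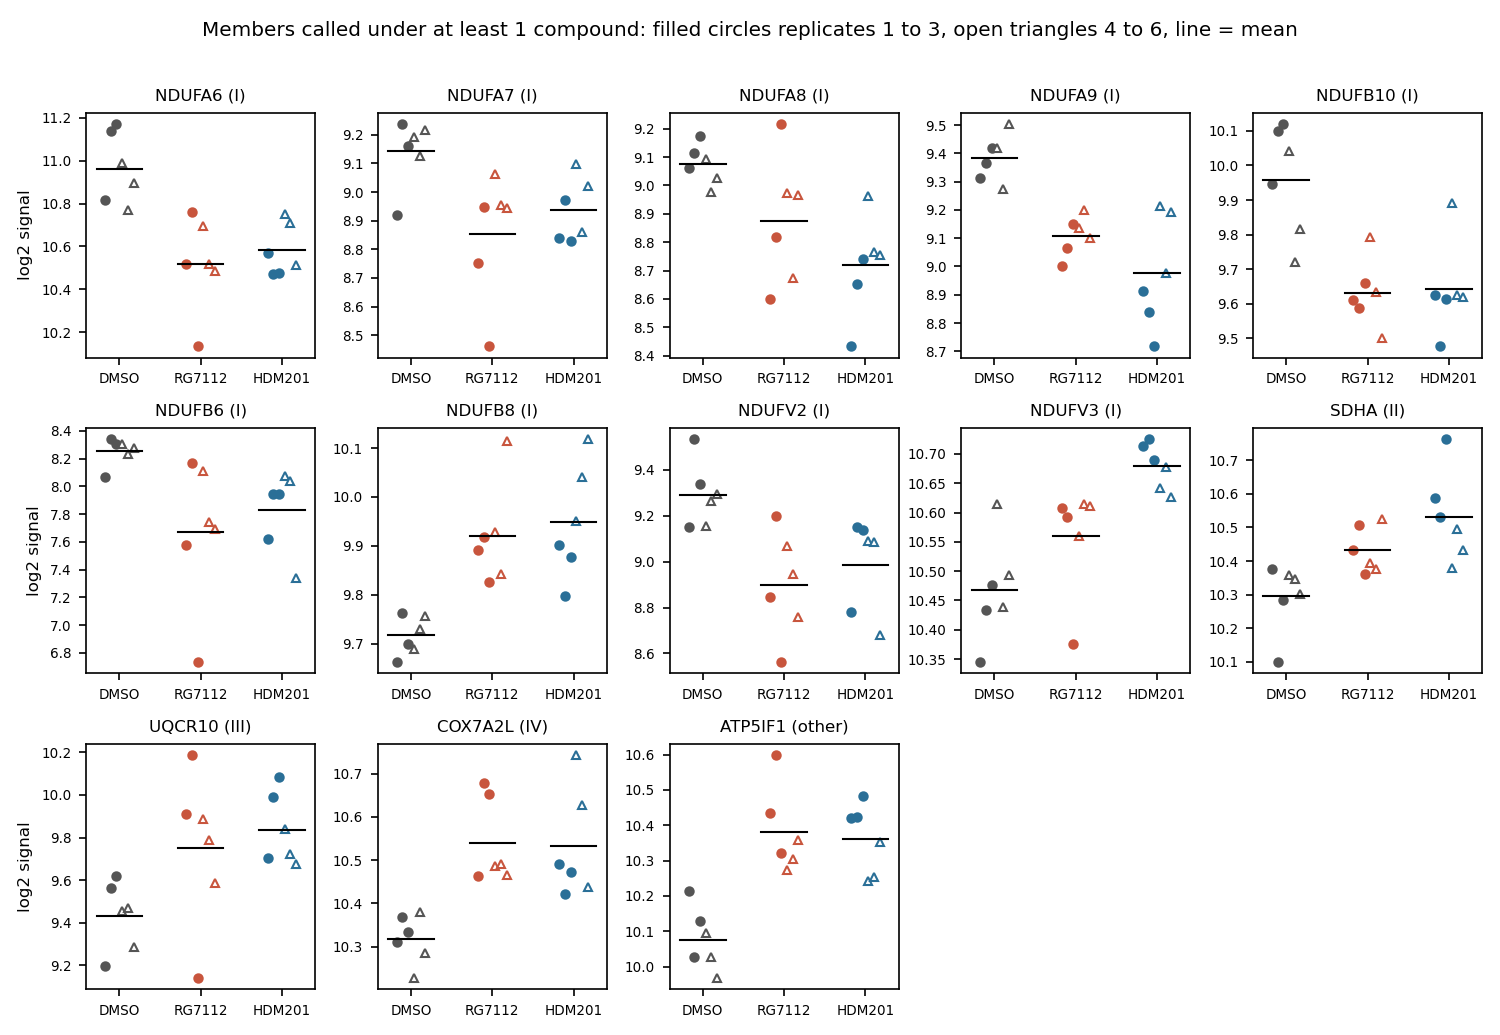
Log2 signal on each array of the 13 members called under at least 1 compound, with filled circles for replicates 1 to 3, open triangles for replicates 4 to 6 and a line at each group's mean (n = 6). Treated arrays of NDUFA6 and NDUFA9 all sit below DMSO and those of COX7A2L, ATP5IF1 and NDUFB8 all sit above it, while RG7112 replicate 3 is the low point of NDUFB6 at 6.73.

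Complex II, which feeds electrons from succinate and carries no proton pump, was the one complex whose measured members were all above 0 under both compounds. SDHA, its flavoprotein, gave 10.10, 10.32 and 10.38 in DMSO, 10.36, 10.41 and 10.53 with RG7112 and 10.38, 10.51 and 10.76 with HDM201. The HDM201 arrays did not overlap DMSO and SDHA rose by 0.24 ± 0.08 (adjusted p = 0.0304). The change with RG7112 was 0.14 (adjusted p = 0.225). The call was lost without DMSO replicate 2, 3 or 6 or HDM201 replicate 1, 2 or 3 (adjusted p 0.0517 to 0.0900) and with array medians subtracted (adjusted p = 0.0776). SDHC and SDHD, the membrane anchors, were not called: SDHC differed by 0.19 (adjusted p = 0.105) and 0.18 (adjusted p = 0.126), and SDHD by 0.19 (adjusted p = 0.115) and 0.13 (adjusted p = 0.318).

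Complex III, which moves electrons from ubiquinol to cytochrome c, held 1 called member of 8. Its median change with RG7112 was -0.03, and 0.05 without RG7112 replicate 3. UQCR10, a small accessory subunit, gave 9.20, 9.46 and 9.62 in DMSO, 9.14, 9.84 and 10.19 with RG7112 and 9.68, 9.78 and 10.09 with HDM201. The lowest RG7112 value, 9.14, was replicate 3, and the HDM201 arrays all lay above DMSO. UQCR10 rose by 0.40 ± 0.13 (adjusted p = 0.0373) with HDM201. The RG7112 change was 0.32 (adjusted p = 0.110) with all arrays and 0.44 (adjusted p = 0.00674) without replicate 3. The HDM201 call was lost without DMSO replicate 1, 4, 5 or 6 or HDM201 replicate 2, 3 or 4 (adjusted p 0.0544 to 0.0963) and with array medians subtracted (adjusted p = 0.0830). CYC1, the catalytic cytochrome c1, was not called, at -0.12 (95% interval -0.29 to 0.06) and -0.16 (-0.34 to 0.02). The core proteins UQCRC1 and UQCRC2 lay at 0.01 and 0.03 with RG7112 and at 0.05 and 0.13 with HDM201, and UQCRQ at -0.20 and -0.22, all not called.

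Complex IV, cytochrome c oxidase, held 1 called member of 17, and its median change was -0.04 with RG7112 (0.02 without replicate 3) and 0.01 with HDM201. COX7A2L is named after the COX7A subunits and is known as a factor that joins complexes III and IV into supercomplexes. It gave 10.23, 10.32 and 10.38 in DMSO, 10.46, 10.49 and 10.68 with RG7112 and 10.42, 10.48 and 10.74 with HDM201, so every treated array lay above DMSO. COX7A2L rose by 0.22 ± 0.07 (adjusted p = 0.0393) and by 0.21 ± 0.07 (adjusted p = 0.0428). These calls sit near the threshold. The RG7112 call was lost without DMSO replicate 1, 2, 3, 4 or 6 or RG7112 replicate 2 or 3 (adjusted p 0.0529 to 0.0856), and the HDM201 call without any single DMSO array or HDM201 replicate 1, 3, 4 or 5 (adjusted p 0.0504 to 0.104). With array medians subtracted neither was called (adjusted p = 0.156 and 0.139). With the replicate numbers as a block in the fit, the RG7112 call was kept (adjusted p = 0.048) and the HDM201 call was not (adjusted p = 0.0552).

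The common subunits of complex IV were not called. COX4I1, a regulatory subunit that binds ATP, gave 9.35, 9.47 and 9.56 in DMSO, 9.10, 9.51 and 9.58 with RG7112 and 9.22, 9.41 and 9.53 with HDM201, a difference of -0.07 under each compound (95% intervals -0.26 to 0.12 and -0.25 to 0.12). COX5B differed by -0.21 (adjusted p = 0.237) and -0.15 (adjusted p = 0.481). The largest uncalled differences were COX7C with RG7112, at -0.25 (adjusted p = 0.25) and -0.08 (adjusted p = 0.584) without replicate 3, and COX8A with HDM201, at -0.22 (adjusted p = 0.175).

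Some complex IV genes encode isoforms restricted to tissues such as muscle, lung or testis, and most of these were dim. COX4I2, COX6B2, COX7A1, COX7B2 and COX8C had DMSO means of 5.57, 4.70, 6.23, 3.51 and 4.69, below the median of all probes in DMSO (6.48). COX6A2, with a mean of 6.82, lay above that median. The lowest signals on any array lay between 2.66 and 2.85. None of the 6 was called, and their changes ran from -0.03 (COX7B2) to 0.21 (COX7A1) with RG7112 and from -0.09 (COX6B2) to 0.08 (COX8C) with HDM201. RG7112 replicate 3 was the high array for COX4I2, COX6B2 and COX7A1. Of the 80 members, 73 lay above that median of all probes.

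Complex V, the ATP synthase, had no called member among 15, with median changes of -0.13 with RG7112 (-0.07 without replicate 3) and -0.07 with HDM201. Of its 15 members, 13 lay below 0 with RG7112 and 11 with HDM201. The catalytic subunit of the head, ATP5F1B, gave 12.57, 12.63 and 12.67 in DMSO, 12.37, 12.52 and 12.55 with RG7112 and 12.42, 12.51 and 12.59 with HDM201. All RG7112 arrays lay below DMSO, but the change of -0.13 ± 0.06 was not called (adjusted p = 0.156), and it was -0.12 (adjusted p = 0.196) with HDM201. ATP5F1A, the non-catalytic partner in the head, differed by 0.01 (95% interval -0.15 to 0.17) and -0.05 (-0.20 to 0.11). ATP5F1D, a subunit of the central stalk, had the widest spread of all members: 9.54, 9.87 and 10.07 in DMSO, 7.63, 9.60 and 9.82 with RG7112 and 8.80, 9.44 and 9.83 with HDM201. Its change of -0.58 ± 0.27 (adjusted p = 0.153) and -0.41 ± 0.27 (adjusted p = 0.36) was not called, and RG7112 replicate 3 gave the 7.63. Without that array the RG7112 change of ATP5F1D was -0.26 (adjusted p = 0.331).

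ATP5IF1 encodes the inhibitor that blocks ATP hydrolysis by the synthase when the proton gradient falls. Its signals were 9.97, 10.06 and 10.21 in DMSO, 10.27, 10.34 and 10.60 with RG7112 and 10.24, 10.39 and 10.48 with HDM201. Every treated array lay above every DMSO array, as was so for 3 members with RG7112 (4.29% of all probes) and 8 with HDM201 (6.63%). ATP5IF1 rose by 0.31 ± 0.07 (adjusted p = 0.00615) and by 0.29 ± 0.07 (adjusted p = 0.00838), kept both calls in all 18 fits that left out 1 array, and changed by 0.33 and 0.32 within replicates 1 to 3 and by 0.28 and 0.25 within 4 to 6. It was also called with array medians subtracted (adjusted p = 0.0269 and 0.0271). The other 4 non-subunit members were not called, and UQCRHL shares near-identical sequence with UQCRH, so its probe may read both.

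**Figure D4:**
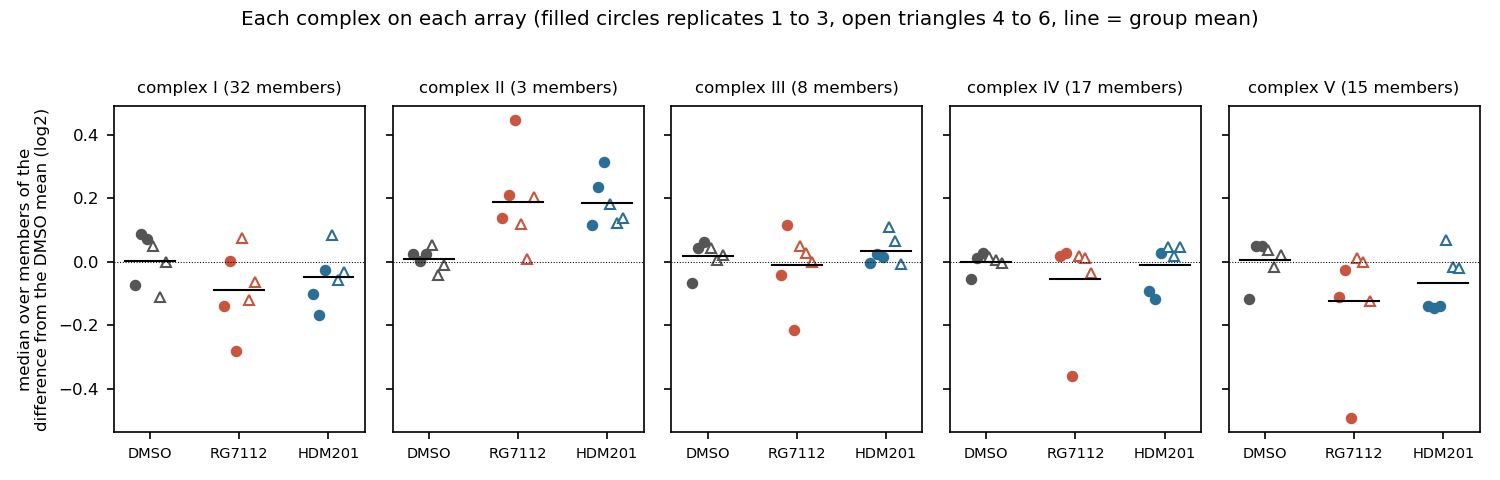
Median over the members of each complex of the difference from the DMSO mean (log2), 1 point per array, with filled circles for replicates 1 to 3, open triangles for replicates 4 to 6 and a line at the group mean (n = 6). In complex II the HDM201 arrays lie between 0.12 and 0.31 against -0.04 to 0.05 in DMSO, and in complexes IV and V the lowest RG7112 point (-0.36 and -0.49) stands well below the others.

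Taken by array, the complexes' medians overlapped between the groups apart from complex II with HDM201. The complex I median, taken as each array's median difference from the DMSO mean, was -0.11, 0.02 and 0.09 in DMSO (lowest, median, highest), -0.28, -0.09 and 0.07 with RG7112 and -0.17, -0.04 and 0.08 with HDM201, so the 3 groups overlapped. Complex V overlapped too, at -0.12, 0.03 and 0.05 in DMSO, -0.49, -0.07 and 0.01 with RG7112 and -0.15, -0.08 and 0.07 with HDM201. Complex II lay at -0.04, 0.01 and 0.05 in DMSO, 0.12, 0.16 and 0.31 with HDM201 and 0.01, 0.17 and 0.45 with RG7112, over only 3 genes.

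Changes were also computed within the replicate sets. All 8 members called with RG7112 and all 10 called with HDM201 had the same sign within replicates 1 to 3 and within 4 to 6. These members were picked by calls on both sets together, so their agreement in sign is partly set by that choice. None of these calls was made within replicates 4 to 6 alone. The median change over the members was -0.13 and -0.01 with RG7112 and -0.10 and 0.04 with HDM201, replicates 1 to 3 first. Within replicates 1 to 3, 1 member rose and 5 fell with RG7112 (15.5% of all probes were called) and 3 rose and 6 fell with HDM201 (16.5%). Within replicates 4 to 6, RG7112 called none of the members by limma, with 7 at an unadjusted p under 0.05 (7.20% of all probes were called), and HDM201 called 1 that rose, NDUFB5 (8.80%).

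The difference between the sets' changes was tested as an interaction and passed at an adjusted p under 0.05 for 0 of 80 members under either compound by limma, beside 0.0373% of all probes for RG7112 and 0.149% for HDM201. At an unadjusted p under 0.05 there was 1 member each, beside 1309 and 1315 of the 21448 probes. Across all groups, 4 members were lower in replicates 1 to 3 than in 4 to 6: NDUFB5 by 0.32 (adjusted p = 0.000675), COX5B by 0.28 (adjusted p = 0.0276), COX8A by 0.23 (adjusted p = 0.0433) and ATP5F1D by 0.64 (adjusted p = 0.0254), beside 7.98% of all probes. This count was 7 without RG7112 replicate 3, 2 without DMSO replicate 6, RG7112 replicate 5 or 6 or HDM201 replicate 5, and 1 without HDM201 replicate 2 or 6. Their part in the results of the called members was not tested.

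The 2 compounds were then set against each other at the doses used, which differ. No member was called between HDM201 and RG7112 by limma (lowest adjusted p = 0.991), none had an unadjusted p under 0.05, and none of the 21448 probes was called (0%). The median difference over the members was 0.03. The 95% interval of the difference lay within 1.5-fold either way for 78 of 80 members and within 2-fold for all 80. The median half-width of these intervals was 0.20, and their bounds reached -0.45 and 0.74. NDUFA9 differed by -0.13 (95% interval -0.31 to 0.04), NDUFA8 by -0.16 (-0.36 to 0.05), NDUFB6 by 0.16 (-0.22 to 0.53) and ATP5IF1 by -0.02 (-0.17 to 0.14).

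Genes around the complexes were followed in 5 further lists with measured genes, chosen by function. Their counts stand beside 7.90% of all probes higher and 9.61% lower with RG7112, and 9.16% and 9.64% with HDM201. The median change of all probes was 0.03 and 0.02. Of 47 measured assembly factors, 4 rose and 4 fell with RG7112 and 4 rose and 5 fell with HDM201, with median changes of -0.07 and -0.09. NDUFAF8, a complex I assembly factor, rose by 0.64 ± 0.12 under each compound (adjusted p = 0.000603 and 0.000487). UQCC2, needed to make cytochrome b for complex III, fell by 0.56 ± 0.17 (adjusted p = 0.0228) and by 0.78 ± 0.17 (adjusted p = 0.00171), and its RG7112 call was lost without DMSO replicate 3 or 4 or RG7112 replicate 3 (adjusted p 0.0527 to 0.0634). CMC2, a complex IV biogenesis factor, fell by 0.52 ± 0.11 (adjusted p = 0.00169) and by 0.58 ± 0.11 (adjusted p = 0.000510). The largest uncalled changes were NDUFAF2 with RG7112, at -0.42 (adjusted p = 0.131), and NDUFAF4 with HDM201, at -0.38 (adjusted p = 0.163).

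Of 26 measured regulators of respiratory gene expression, none rose, with 5 falling under each compound (beside 9.61% and 9.64% of all probes) and median changes of -0.20 and -0.11. MTERF3, a factor that acts on mitochondrial transcription and ribosome assembly, fell by 0.78 ± 0.12 (adjusted p = 0.000118) and by 0.76 ± 0.12 (adjusted p = 0.000117). MYC fell by 0.54 ± 0.15 (adjusted p = 0.0156) and by 0.55 ± 0.15 (adjusted p = 0.0123). NRF1 gave 8.10, 8.20 and 8.32 in DMSO, 7.43, 7.71 and 7.96 with RG7112 and 7.55, 7.68 and 7.94 with HDM201. No treated array overlapped DMSO, and NRF1 fell by 0.50 ± 0.10 (adjusted p = 0.000846) and by 0.48 ± 0.10 (adjusted p = 0.000995). Any part of NRF1 in the members' changes was not tested.

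The other regulators that fell were TFAM, which packages and transcribes mitochondrial DNA, under both compounds, the mitochondrial helicase TWNK with RG7112 and the single-strand binding protein SSBP1 with HDM201. TFAM fell by 0.24 ± 0.07 (adjusted p = 0.0205) and by 0.31 ± 0.07 (adjusted p = 0.00355), and its RG7112 call was lost without DMSO replicate 4 or RG7112 replicate 1 (adjusted p 0.0506 to 0.0533). TWNK fell by 0.51 ± 0.16 (adjusted p = 0.0384), a call lost in 8 of the 18 fits without 1 array: DMSO replicate 2, 3, 4 or 6 or RG7112 replicate 1, 2, 3 or 5 (adjusted p 0.0530 to 0.0939). SSBP1 fell by 0.44 ± 0.13 (adjusted p = 0.0186), lost without DMSO replicate 6 or HDM201 replicate 1 or 2 (adjusted p 0.0516 to 0.0548). TFAM and SSBP1 were named after their values were seen. GABPA, at -0.20 (adjusted p = 0.211) and -0.13 (adjusted p = 0.455), and the coactivator PPARGC1A, at 0.04 (adjusted p = 0.901) and 0.14 (adjusted p = 0.678), were not called and were also named afterwards. PPRC1, a related coactivator, had the largest uncalled change, at -0.62 (adjusted p = 0.0616) and -0.53 (adjusted p = 0.109).

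Of 24 genes of the citric acid cycle and the pyruvate dehydrogenase complex, none rose and the same 2 fell under both compounds. IDH2, the mitochondrial isocitrate dehydrogenase, gave 9.58, 9.74 and 9.87 in DMSO, 9.01, 9.12 and 9.34 with RG7112 and 8.84, 8.95 and 9.24 with HDM201. IDH2 arrays did not overlap DMSO, and the fall was 0.58 ± 0.08 (adjusted p = 3.71e-05) and 0.73 ± 0.08 (adjusted p = 1.27e-06). DLAT, a pyruvate dehydrogenase subunit, fell by 0.53 ± 0.13 (adjusted p = 0.00621) and by 0.56 ± 0.13 (adjusted p = 0.00331). PDK1, a kinase that switches that complex off, had a larger but more variable difference of -0.83 ± 0.32 (adjusted p = 0.0821) and -0.85 ± 0.32 (adjusted p = 0.0712) and was not called.

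Of 21 electron carriers and other entry points to the chain, 4 rose and 1 fell with RG7112 and 3 rose and 1 fell with HDM201. PDSS1, which makes the side chain of ubiquinone, fell by 0.57 ± 0.14 (adjusted p = 0.00532) and by 0.64 ± 0.14 (adjusted p = 0.00189). COQ8B, a ubiquinone biosynthesis factor, rose by 0.36 ± 0.09 (adjusted p = 0.00601) and by 0.40 ± 0.09 (adjusted p = 0.00186). SQOR, which passes electrons from sulphide to ubiquinone, rose by 0.42 ± 0.13 (adjusted p = 0.0299) with RG7112, a call lost without DMSO replicate 4 or 5 or RG7112 replicate 2 (adjusted p 0.0513 to 0.0777), and differed by 0.34 (adjusted p = 0.0743) with HDM201. PRODH rose by 0.42 ± 0.15 (adjusted p = 0.0481) with HDM201, a call lost in 12 of the 18 fits without 1 array (adjusted p 0.0514 to 0.135). COQ3 had the largest uncalled change with RG7112, at -0.41 (adjusted p = 0.0704). CYCS, the electron carrier cytochrome c, was not called, at -0.29 (adjusted p = 0.126) and -0.18 (adjusted p = 0.381), and was named after its values were seen.

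The p53-linked mitochondrial list behaved apart from the subunits in size: 6 of 9 measured genes rose under each compound and none fell, with median changes of 1.15 and 1.33. Some of these genes were already known as p53 targets that rose in earlier results of these data, so their direction is not independent evidence. TIGAR, which lowers glycolytic flux, rose by 2.05 ± 0.28 (adjusted p = 2.67e-05) and by 2.21 ± 0.28 (adjusted p = 6.67e-06). SESN1 and SESN2, stress proteins that restrain mTORC1, rose by 1.98 and 1.53 with RG7112 and by 2.13 and 1.74 with HDM201. RRM2B, which supplies nucleotides for mitochondrial DNA, rose by 1.54 and 1.61. The largest uncalled changes were those of AIFM2, a dim gene with a DMSO mean of 4.41, at -0.41 (adjusted p = 0.153) and -0.43 (adjusted p = 0.139). Without RG7112 replicate 3, AIFM2 was called lower with RG7112, at -0.58 (adjusted p = 0.0156). AIFM1, a flavoprotein that supports complex I assembly, was not called, at -0.11 (adjusted p = 0.462) and -0.16 (adjusted p = 0.312).

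Some cell type markers moved with the treatment too. Among the 6 myeloid markers, SPI1 rose by 0.34 ± 0.07 (adjusted p = 0.00111) and by 0.38 ± 0.07 (adjusted p = 0.000270), and CSF3R rose by 0.64 ± 0.18 (adjusted p = 0.0120) with HDM201 and differed by 0.49 (adjusted p = 0.0587) with RG7112. The other 4 myeloid markers were not called, nor was any marker of lymphocytes or of erythroid cells and megakaryocytes. Of the 6 fibroblast and epithelial markers, KRT8 rose by 0.44 (adjusted p = 0.0307) with RG7112 and EPCAM fell by 0.40 (adjusted p = 0.00585) with HDM201. In bulk RNA of this kind, a change in the make-up of the cells and a change in RNA per cell cannot be told apart, and the part of these markers in the members' changes was not tested.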

How the data were processed

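The authors deposited log2 signals of 18 arrays made with the oligo package and RMA, per the submitters' processing notes; tool versions and the genome build were not given in the sources used here. RMA pulls the arrays to a common distribution and compresses low signals, so a shift shared by most genes and changes of dim probes can be understated. Arrays carry no read depth, and the 6 arrays per group limit the precision. Of 21448 probes, 17709 had 1 gene symbol in the platform annotation and 3739 none here, and all 80 members matched RefSeq by gene ID. Gene names are the annotation's.

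A mean per group was fitted to every probe over all 18 arrays with limma 3.58.1 in R 4.3.3, with its empirical Bayes test and Benjamini-Hochberg adjustment over all 21448 probes. A member was called, and is said to have risen or fallen, at an adjusted p under 0.05. Errors are the fit's SE unless another is named, and intervals are 95%. The fit was tested on simulated data. The members and lists were chosen with earlier results of these data known. Values were given for every called member, the largest uncalled change per complex, catalytic or core subunits, tissue-restricted isoforms, and, per list, up to 3 called genes and the largest uncalled one. Further genes were named after their values were seen: those the text says so of, NDUFAB1, UQCRC1, UQCRC2, UQCRQ, NDUFB5, AIFM1, and SESN2 and RRM2B outside the comparison where the rule names them. Alternatives were another prior, array weights, filters on dim probes, other scalings, only the arrays compared, replicate terms and leaving out each array.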

Additional observations from a re-analysis of the deposited data

Results flagged for a closer look

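An array was marked where, in a group of 6, its gap to the nearest other array passed Dixon's 95% critical value, as a share of the group's range. Over the 80 members and 3 groups (240 sets of values) 32 were marked, beside about 1 in 20 by chance, and 19 of the 32 were RG7112 replicate 3. Signals are log2.

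In RG7112 replicate 3, 15 members were marked low. In complex I these were NDUFB4 at 8.69, NDUFB9 at 10.64, NDUFB11 at 9.10 and NDUFV3 at 10.38. In complex IV they were COX5B at 8.28, COX6B1 at 9.49, COX6C at 9.62, COX7A2 at 9.16 and COX7C at 8.81. In complex V they were ATP5F1D at 7.63, ATP5MC1 at 10.78, ATP5MF at 11.38, ATP5MG at 9.34, ATP5MJ at 9.87 and ATP5PF at 10.89. The same array was marked high for SDHC at 10.94 and for the dim isoforms COX4I2 at 6.5, COX6B2 at 5.49 and COX7A1 at 7.11. Outside the members it was low for the assembly factor NDUFAF2 at 5.71 and the coactivator PPRC1 at 7.34. 

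The other marks were scattered. RG7112 replicate 2 was high for NDUFS5 at 11.48 and UQCRB at 10.23, RG7112 replicate 5 low for ATP5PO at 11.27 and RG7112 replicate 6 high for NDUFB8 at 10.11. HDM201 replicate 4 was high for NDUFB10 at 9.89 and ATP5PF at 12.29, HDM201 replicate 3 high for UQCRC1 at 10.45 and for SQOR at 9.23, and HDM201 replicate 2 low for ATP5MF-PTCD1 at 7.19. In DMSO, replicate 1 was low for NDUFA7 at 8.92, replicate 2 low for SDHA at 10.10, replicate 5 low for NDUFA11 at 9.88, replicate 3 high for ATP5MF-PTCD1 at 7.87 and replicate 4 high for CYC1 at 10.91.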

How the results depend on the processing

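Over 32 settings, 7231 of 7410 combinations of a gene and a setting kept their call or their lack of one. In 89 a call was lost and in 90 one was gained. Most combinations concern members without a call, and they include the comparison between the compounds, so this share does not tell how well calls held. All 89 losses fall on the 8 calls with RG7112 and the 10 with HDM201. Each of these calls was lost in 1 (as for NDUFA6) to 14 (COX7A2L with HDM201) of 31 settings. No call changed sign, and the signs of uncalled changes were not counted. No member was called between the compounds in any setting. Array weights gave 5 members that rose with RG7112, and 10 that rose and 9 that fell with HDM201. Subtracting array medians gave 1 that rose with each compound, and a further quantile normalization 7 with RG7112. Fitting only the 12 arrays compared gave 1 that rose and 5 that fell with RG7112, and 9 that rose and 7 that fell with HDM201. With a replicate block 6 rose and 9 fell with RG7112 and 8 rose and 6 fell with HDM201. COX8A fell with RG7112 in that fit (adjusted p = 0.0435), and the HDM201 call of COX7A2L was not made (adjusted p = 0.0552). The labels do not say what the numbers mark. Arrays with the same number correlated above 0.1 in 16 of 18 pairs (0.02 to 0.44, median 0.23, beside 0.10 for other numbers of the same set), and 11 of 18 arrays correlated best with their own number in both other groups. With each set's means removed, the median was 0.14 for the same number, with 12 of 18 pairs above 0.1. For other numbers of the same set it was -0.05, with 2 of 36 above 0.1. Since 2 pairs lay below 0.1 before that step, among them DMSO and RG7112 replicate 3 at 0.017, the main fit used no pairing. The numbers remain a hint of one, and the blocked fit called 15 members with RG7112 and 14 with HDM201. The replicate sets as a term gave 4 that rose with RG7112, and keeping only textbook subunits gave 1. Leaving out probes below the median signal gave 7 members that differed between the sets. Within replicates 1 to 3, 1 rose with RG7112 and 3 with HDM201, and the median changes were -0.19 for complex I with RG7112 and, with HDM201, -0.10 for all members, -0.13 for complex I, -0.069 for complex IV and -0.18 for complex V. Within replicates 4 to 6, 0 rose and 0 fell with RG7112 and 1 rose and 0 fell with HDM201, where the complex V median was 0.040. These within-set fits hold 3 arrays per group. For the other settings the share of all probes called is not given, so their counts of members stand without a background. The causes of the other shifts were not tested.

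Leaving out 1 array gave 1 to 3 members that rose and 3 to 8 that fell with RG7112, 2 to 9 that rose and 4 to 8 that fell with HDM201, and 1 to 7 that differed between the sets. The complex V median between the compounds ran from -0.029 (without RG7112 replicate 3) to 0.090. Averaging all probes of a symbol changed nothing, since each member has 1 probe, and placing NDUFA4 in complex I gave no value, since that gene was not analysed here. With 6 arrays per group, changes of the size seen in most members could not be told from the spread between arrays. Most tissue-restricted isoforms lay below the median of all probes, and differences are compressed at low signals.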
